A study of Mus musculus with 14 samples.

Results

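CXC chemokines are small secreted proteins that attract leukocytes along a concentration gradient. The 8 genes described here are Cxcl1, Cxcl2, Cxcl9, Cxcl10, Cxcl12, Cxcl13, Cxcl14 and Cxcl16, taken by their symbols in the gene table of the deposited matrices, which lists 55335 genes, of which 13 carry a Cxcl symbol. UMIs, the counts of unique molecules, of 7 of the 8 were present in every library over all barcodes.

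The samples were 14 single-cell RNA libraries of whole mouse spinal cord taken at P115-120, a stage that the design text calls mid-disease. SOD1 (3 libraries) was the strain B6SJL-Tg(SOD1*G93A)1Gur/J, which carries a mutant human SOD1 transgene and is a model of amyotrophic lateral sclerosis. Clec7aKO (4 libraries) was B6.129S6-Clec7atm1Gdb/J, which lacks the myeloid receptor gene Clec7a, SOD1_Clec7aKO (4 libraries) combined both alterations, and nTg (3 libraries) had no transgene. The animals were perfused with cold PBS, the cords were digested with enzymes at warm temperature and myelin was removed with beads before capture. The strain names give the transgene and the knockout different backgrounds, and the labels used here state neither sex nor how many animals went into a library, so p-values measure only the spread between these libraries, which may be technical.

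Most CXC chemokines act on G protein-coupled CXCR receptors. Cxcl1 and Cxcl2 act through CXCR2 and draw neutrophils, Cxcl9 and Cxcl10 are induced by interferons and act through CXCR3 on T cells, Cxcl12 acts through CXCR4 and ACKR3, and Cxcl13 acts through CXCR5 and guides B cells. Cxcl16 is made as a membrane-bound protein that Adam10 and Adam17 can shed and binds CXCR6, and the receptor of Cxcl14 is less settled. In the nervous system, microglia, the resident macrophages, and border-associated macrophages are known sources of the inflammatory members, and endothelium is a known source of Cxcl12.

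Of the 108892 barcodes deposited, 89756 were kept after filters on depth, mitochondrial share and doublets. Library totals ran from 28819852 UMIs (SOD1_Clec7aKO_4) to 141204910 (SOD1_2), and any pair of libraries shared at most 44 barcodes. Clusters were named from marker genes, and "microglia" and the other class names below stand for clusters that were microglia-like and so on. The 8 microglia clusters held 43539 cells and all 12 microglia markers were detected in them. Clusters 13 and 15, where P2ry12 and other genes of resting microglia were high, held most microglia of nTg and Clec7aKO, while clusters 0, 1 and 3 held most of those with the transgene. Against all other cells, cluster 15 was led by Tsix and Xist. It held a mean of 14.3% ± 12.4 (SD) of kept cells in nTg and 6.77% ± 13.3 in Clec7aKO. In SOD1 its mean was 0.00976% and in SOD1_Clec7aKO 0.396%. The labels state no sex, the cause of this uneven share was not tested, and Xist is a covariate in some fits below. CPM are UMIs scaled to the summed UMIs of the class in that library, with TMM normalization except where given under data processing. Clec7a, the targeted gene, was at 29.9 to 82.1 CPM in nTg microglia and 837 to 1040 CPM in SOD1. In Clec7aKO it was at 0.732 to 2.59 CPM and in SOD1_Clec7aKO at 1.89 to 4.01 CPM. The targeted gene followed the labels in every library. A cluster of 5642 cells led by Gpnmb and one of 2672 low-depth cells were left out of the microglia. All 12 microglia markers were detected in both. Their mean log2 fold was 3.69 and 4.84, and that of the next class 0.75 and 0.97. The first stayed unnamed because another class was found among its leading genes, and the second because of its low depth. The Gpnmb-led cluster held a mean of 0.0279% of kept cells in nTg, 0.01932% in Clec7aKO, 6.804% in SOD1 and 11.96% in SOD1_Clec7aKO. Microglial levels, shares and tests below are without these cells unless stated.

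All 8 members are protein-coding genes, and 5 of them lie on chromosome 5. In GENCODE vM21 (GRCm38), Cxcl1 (ENSMUSG00000029380.11) is at chr5:90891241-90893115 and Cxcl2 (ENSMUSG00000058427.10) at chr5:90903871-90905938, both on the plus strand. Cxcl9 (ENSMUSG00000029417.9, chr5:92321347-92328079) and Cxcl10 (ENSMUSG00000034855.13, chr5:92346638-92348889) lie on the minus strand. Cxcl13 (ENSMUSG00000023078.6) is at chr5:95956951-95961068, Cxcl12 (ENSMUSG00000061353.11) at chr6:117168535-117181367, Cxcl14 (ENSMUSG00000021508.11) at chr13:56288643-56296551 and Cxcl16 (ENSMUSG00000018920.11) at chr11:70453983-70459984. The RefSeq promoter table (GRCm38.p6) held 7 of the 8, all but Cxcl16. The 250 bases upstream of the start site are shown for Cxcl1, Cxcl2 and Cxcl10, the inflammatory members with the highest microglial correlations to each other with the transgene (described below), and for Cxcl9, the interferon-induced neighbour of Cxcl10. They are written 5′ to 3′ on the gene's strand, with matches to 3 motifs in capitals: GGG and TTCC with 3 bases between (NF-kB), GAAA and GAAA with 2 bases between (ISRE, the interferon-stimulated response element) and TTC and GAA with 3 bases between (GAS, the gamma-activated site), each searched on both strands.
Cxcl1 (chr5:90890995-90891244, plus strand): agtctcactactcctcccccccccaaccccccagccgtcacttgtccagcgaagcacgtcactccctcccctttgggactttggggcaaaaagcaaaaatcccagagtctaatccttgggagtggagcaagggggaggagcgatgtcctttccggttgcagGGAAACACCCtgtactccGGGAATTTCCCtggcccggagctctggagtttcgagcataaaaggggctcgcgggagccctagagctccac
Cxcl2 (chr5:90903649-90903898, plus strand): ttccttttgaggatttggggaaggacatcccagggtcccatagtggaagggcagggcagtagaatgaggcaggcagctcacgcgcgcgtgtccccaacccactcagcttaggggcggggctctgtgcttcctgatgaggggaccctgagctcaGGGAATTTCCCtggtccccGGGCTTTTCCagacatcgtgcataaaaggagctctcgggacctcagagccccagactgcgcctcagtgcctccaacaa
Cxcl10 (chr5:92348890-92349139, minus strand): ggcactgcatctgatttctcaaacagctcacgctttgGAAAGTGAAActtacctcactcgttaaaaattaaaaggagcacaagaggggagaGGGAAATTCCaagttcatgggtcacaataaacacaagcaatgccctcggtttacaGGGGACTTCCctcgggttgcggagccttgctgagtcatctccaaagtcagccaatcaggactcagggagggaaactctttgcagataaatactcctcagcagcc
Cxcl9 (chr5:92328080-92328329, minus strand): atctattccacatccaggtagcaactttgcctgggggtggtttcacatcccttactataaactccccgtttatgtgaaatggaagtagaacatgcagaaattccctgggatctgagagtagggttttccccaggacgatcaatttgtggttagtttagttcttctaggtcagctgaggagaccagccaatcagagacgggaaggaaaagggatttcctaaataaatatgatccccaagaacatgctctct

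The Cxcl1 and Cxcl2 windows each held 3 NF-kB matches, a pair of which overlapped on opposite strands, and the Cxcl10 window held 2 NF-kB matches and 1 ISRE match. The NF-kB letters occurred in 4.65% of the 32851 upstream windows of that length, the ISRE letters in 2.98% and the GAS letters in 7.02%. The Cxcl14 window held 1 ISRE and 1 GAS match, and the letters searched were not in the Cxcl9, Cxcl12 and Cxcl13 windows. A match describes the letters only.

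The classes that held the UMIs of each chemokine differed between members, and for Cxcl1 and Cxcl14 the leading class also differed between groups (plot of UMI shares by class). Microglia held 94.9% of all Cxcl10 UMIs, 86.9% of Cxcl2, 83.5% of Cxcl16, 94.3% of Cxcl9 and 96.8% of Cxcl13 over all libraries. Endothelial cells held 62.8% of Cxcl12 UMIs, and a further 36.0% were in unnamed clusters, nearly all in cluster 16, in which endothelial and mural markers were mixed. These are shares of the pooled UMIs. For Cxcl9 the mean share over libraries was 72.3% ± 48.0 in ependymal cells and 27.2% ± 47.1 in microglia in nTg (SD, n = 3), from 70 UMIs in all. In Clec7aKO it was 45.5% ± 41.3 in ependymal cells and 45.3% ± 42.4 in microglia (n = 4), whereas in SOD1 microglia held 93.0% ± 6.23 and ependymal cells 0.0944% ± 0.164 (n = 3). These means weight each library equally, and nTg_2 and nTg_3 held 1 and 4 Cxcl9 UMIs in kept cells. By UMIs microglia led in both groups: nTg_1 microglia held 53 of the 70 in nTg, and Clec7aKO_1 microglia 846 of the 881 in Clec7aKO.

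**Figure D1:**
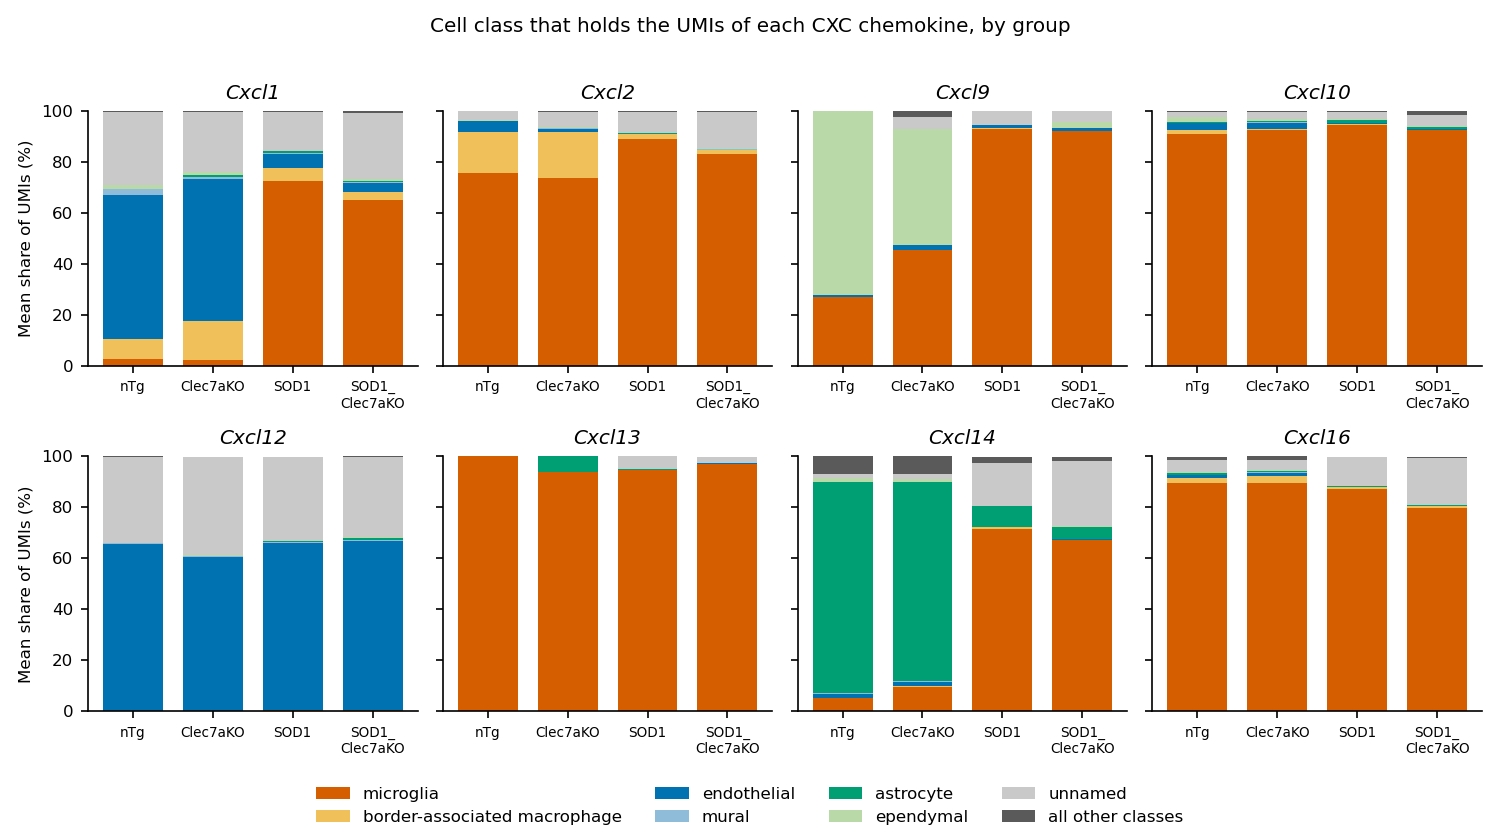
Stacked bars give, for each CXC chemokine and group, the mean over libraries of the share of that gene's UMIs (percent, y axis) held by each cell class (colours). Cxcl10, Cxcl2 and Cxcl16 sit mainly in microglia in every group and Cxcl12 in endothelial and unnamed cells. Cxcl1 and Cxcl14 have other leading classes with the transgene than without it. Without it the mean Cxcl9 share is split between ependymal cells and microglia, with each library weighted equally. Libraries with no UMI of the gene are left out, and the Cxcl9 and Cxcl13 bars without the transgene rest on few UMIs.

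Without the transgene, Cxcl1 UMIs came mainly from endothelium, and with it mainly from microglia. Endothelial cells held 56.8% ± 20.3 (SD, n = 3) of the Cxcl1 UMIs in nTg and microglia 2.49% ± 2.29, whereas in SOD1 microglia held 72.6% ± 11.9 (n = 3) and endothelial cells 5.47% ± 2.04. In Clec7aKO the endothelial share was 55.7% ± 17.7 (n = 4) and the microglial share 2.33% ± 0.768, and in SOD1_Clec7aKO they were 3.75% ± 2.95 and 65.1% ± 15.4 (n = 4). The microglial shares did not overlap between libraries with and without the transgene. These shares also move with the number of cells of each class in a library, which was 933 to 2392 microglia in nTg and 3542 to 5128 in SOD1.

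The leading class of Cxcl14 UMIs also differed, with astrocytes leading without the transgene and microglia with it. Astrocytes held 83.1% ± 6.80 (SD, n = 3) of its UMIs in nTg and 78.5% ± 5.12 (n = 4) in Clec7aKO, and 7.94% ± 3.60 in SOD1 and 4.75% ± 1.27 in SOD1_Clec7aKO. Microglia held 5.13% ± 3.19 in nTg and 9.41% ± 3.45 in Clec7aKO, and 71.7% ± 8.73 in SOD1 and 67.1% ± 12.5 in SOD1_Clec7aKO. Unnamed clusters, which include the Gpnmb-led one, held 1.43% in nTg, 2.11% in Clec7aKO, 16.95% in SOD1 and 25.73% in SOD1_Clec7aKO. These shares also move with cell numbers, which were 611 to 629 astrocytes per library in nTg and 211 to 357 in SOD1.

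Border-associated macrophages, a small class of 571 cells that was above 20 cells in 12 libraries, had the highest Cxcl1 and Cxcl2 levels of any class. Their Cxcl2 level without the transgene was 6985 ± 762 CPM (SD, n = 2, nTg) and 4030 ± 3305 (n = 3, Clec7aKO). With it the level was 3381 ± 385 CPM (n = 3, SOD1) and 3892 ± 2031 (n = 4, SOD1_Clec7aKO). Their Cxcl1 level was 217.6 ± 154 CPM in nTg, 384 ± 500 in Clec7aKO, 237 ± 111 in SOD1 and 169 ± 130 in SOD1_Clec7aKO. Their mean Cxcl16 level, 324.7 CPM, was also above that of microglia, 232 CPM (both on plain totals). It was higher in nTg (241.7 against 117.3 CPM), Clec7aKO (259.1 against 112.3) and SOD1 (424.3 against 354.2). In SOD1_Clec7aKO it was not (340.5 against 345.9). For Cxcl2 the SOD1 libraries lay below those of nTg, and no test was made in this class because nTg_3 and Clec7aKO_2 had 12 and 16 of its cells, under the 20 asked of every library. Cxcl13 had 0 UMIs there in these 12 libraries.

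Within microglia, levels were summed per library and tested with edgeR's quasi-likelihood test over 16498 genes (plot of levels in microglia). All 8 members passed the filter on low counts. In SOD1 against nTg 5 of the 8 rose (Cxcl1, Cxcl2, Cxcl13, Cxcl14 and Cxcl16) and 0 fell at an edgeR adjusted p under 0.05, where 31.7% of all genes tested were called, 19.1% of them higher and 12.6% lower. In SOD1_Clec7aKO against Clec7aKO the same 5 rose and Cxcl12 fell, where 43.2% were called, 24.3% higher and 18.9% lower. The median log2 fold change of the 8 members was 2.77 and 2.59 in these comparisons, against 0.00 and 0.01 over all genes tested.

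**Figure D2:**
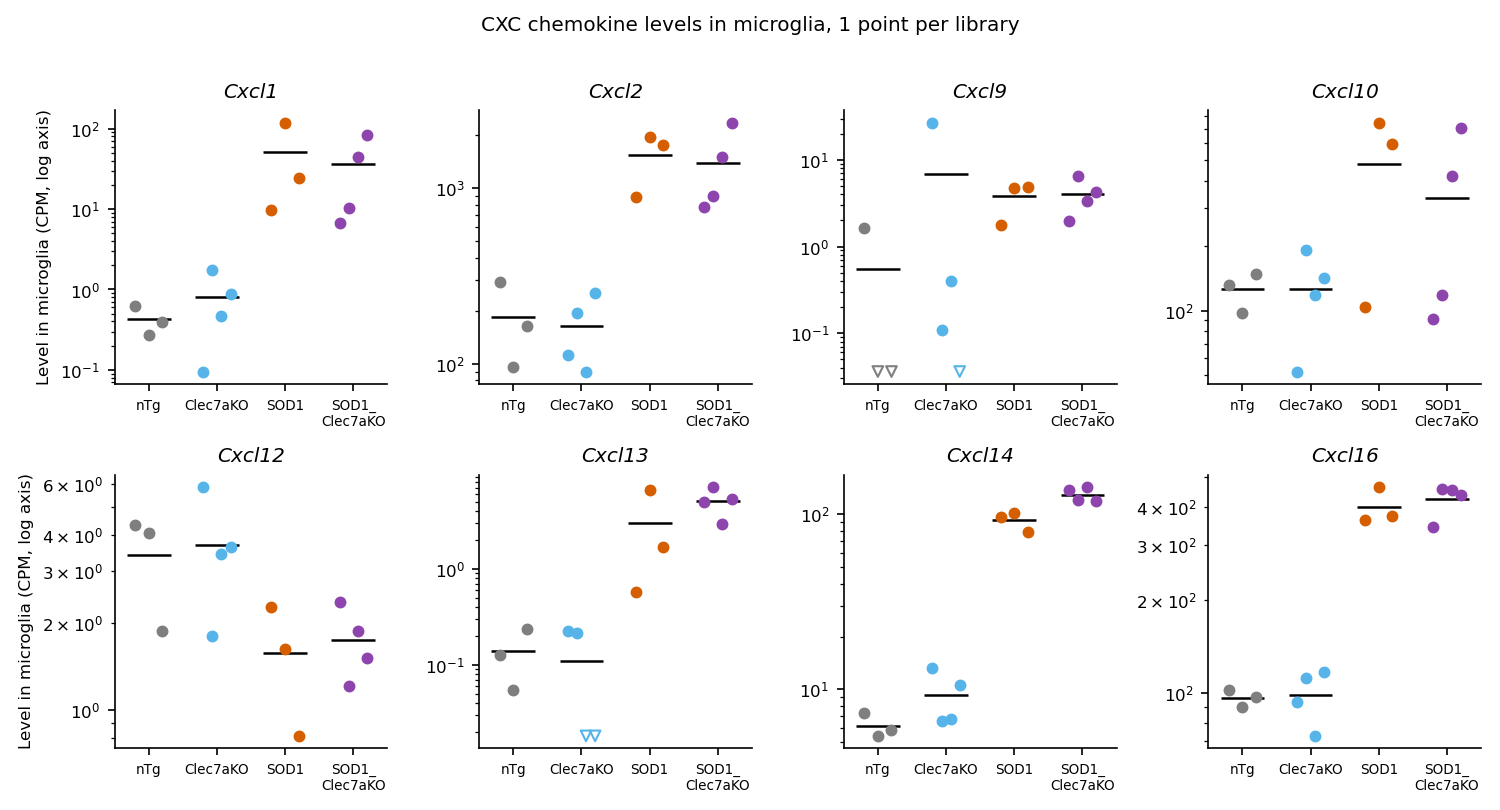
Each point is the level of a CXC chemokine in the microglia of 1 library (CPM, log axis), in the 4 groups on the x axis, the horizontal line is the group mean, and an open triangle at the bottom is a library with 0 UMIs. For Cxcl1, Cxcl2, Cxcl13, Cxcl14 and Cxcl16 all 7 libraries with the transgene lie above all 7 without it, while Cxcl9, Cxcl10 and Cxcl12 overlap. The share of all genes that separate in this way is not given, so the separation is a description and not a trait of the family.

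Cxcl1, a neutrophil attractant, was near the floor in microglia without the transgene. Its level was 0.626, 0.271 and 0.39 CPM in the nTg libraries and 0.0954, 1.76, 0.465 and 0.87 CPM in Clec7aKO, from 3 to 49 UMIs per library. In SOD1 it was 9.68, 118.5 and 24.6 CPM, and in SOD1_Clec7aKO 6.74, 10.2, 44.1 and 84.2 CPM. The groups with and without the transgene did not overlap, but within each transgene group the levels spanned more than an order of magnitude. The log2 fold change was 6.78 (SE 1.30, edgeR adjusted p = 0.00129) in SOD1 against nTg and 5.47 (SE 1.04, edgeR adjusted p = 7.7e-04) in SOD1_Clec7aKO against Clec7aKO. Few cells carried it: after thinning each cell to 2000 UMIs, 0.0432% of nTg and 3.68% of SOD1 microglia had a Cxcl1 UMI (0.278% and 8.57% unthinned). In endothelial cells, where it was found in every group, the thinned shares were 3.24% in nTg and 3.46% in SOD1 (8.83% and 9.21% unthinned), at a median of 6413 UMIs per cell against 10359 in microglia.

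Cxcl2, the close relative of Cxcl1 on the same stretch of chromosome 5, was measured in microglia of every library. Its level was 290.0, 95.9 and 164 CPM in nTg and 112, 195, 90 and 254 CPM in Clec7aKO. In SOD1 it was 887, 1967 and 1771 CPM and in SOD1_Clec7aKO 785, 904, 1501 and 2363 CPM. The lowest library with the transgene was thus 785 CPM and the highest without it 290.0 CPM. The log2 fold changes were 3.07 (SE 0.53, edgeR adjusted p = 6.4e-04) and 3.09 (SE 0.46, edgeR adjusted p = 1.2e-04). The thinned share of microglia with a Cxcl2 UMI was 9.53% ± 3.84 (SD, n = 3) in nTg and 50.9% ± 14.2 (n = 3) in SOD1 (14.2% and 69.2% unthinned). In endothelial cells, where its level was low, it was 0.837% and 4.44% (1.91% and 12.9% unthinned).

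Cxcl10, an interferon-induced T cell attractant, did not pass the test in microglia. Its level was 132, 97.6 and 147 CPM in nTg and 52.0, 191, 119 and 142 CPM in Clec7aKO. In SOD1 it was 104, 746 and 592 CPM and in SOD1_Clec7aKO 91.6, 118, 424 and 704 CPM. The groups overlapped, because SOD1_1, SOD1_Clec7aKO_1 and SOD1_Clec7aKO_2 stayed within the range of the libraries without the transgene. The log2 fold change was 1.94 (SE 0.75, edgeR adjusted p = 0.0612) in SOD1 against nTg and 1.41 (SE 0.64, edgeR adjusted p = 0.0873) in SOD1_Clec7aKO against Clec7aKO. Without SOD1_1 it was 2.36 in SOD1 against nTg (edgeR adjusted p = 0.0228), and without SOD1_Clec7aKO_1 it was 1.72 in the other comparison (edgeR adjusted p = 0.034).

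The low libraries of Cxcl10 share low library numbers, a running number that the labels give to each library and do not call a batch. SOD1_1, SOD1_Clec7aKO_1, SOD1_Clec7aKO_2 and Clec7aKO_1 are numbers 1 to 4, and no nTg library is among them. Clec7aKO_1 was also the lowest of its group for Cxcl10, at 52.0 CPM, and for Cxcl1, at 0.0954 CPM. Among microglia with the transgene, SOD1_1, SOD1_Clec7aKO_1 and SOD1_Clec7aKO_2 were also the lowest for Cxcl1 and Cxcl2. Cxcl1 was at 6.74 to 10.2 CPM in them and 24.6 to 118.5 CPM in the other transgene libraries. Cxcl2 was at 785 to 904 CPM against 1501 to 2363 CPM. With the library number as a covariate, Cxcl10 passed the test in SOD1 against nTg (2.78, edgeR adjusted p = 9.85e-04) and in SOD1_Clec7aKO against Clec7aKO (1.06, edgeR adjusted p = 0.0446). The SOD1 libraries have numbers 1, 5 and 6 and the nTg libraries 8, 9 and 12. Number and group are thus fully separated in SOD1 against nTg, and the value there rests on assuming a straight trend with number. With libraries 1 to 4 as a block, the log2 fold change of Cxcl10 was 2.27 in SOD1 against nTg and 1.6 in SOD1_Clec7aKO against Clec7aKO. This block was chosen after seeing the data, from libraries low in Cxcl10, so these values are a description and no test. The cause of the split was not tested.

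Of 30 relations between microglial levels of the 6 members with at least 3 UMIs in every library, computed in the 7 libraries with and the 7 without the transgene, 2 passed the adjusted exact permutation test (two-sided). Cxcl2 with Cxcl10 had Pearson's r = 0.984 with the transgene (exact permutation p = 6.0e-04, adjusted 0.0179) and Spearman's rho = 0.964 (exact permutation p = 0.00278, adjusted 0.0417). Without the 2 libraries farthest from the median of Cxcl2, r was 0.967 over 5 libraries (exact permutation p = 0.0167, adjusted 0.167, the smallest adjusted value of any pair over 5 libraries). Cxcl1 with Cxcl10 had r = 0.938 without the transgene (exact permutation p = 0.00238, adjusted 0.0357) and rho = 0.786 (exact permutation p = 0.048, adjusted 0.24), and r was 0.673 (exact permutation p = 0.225) without Clec7aKO_1 and Clec7aKO_2, so that this relation rested on those libraries. With the transgene, Cxcl1 had r = 0.933 with Cxcl2 and 0.931 with Cxcl10 (exact permutation adjusted p = 0.067 for both), which did not pass, while Spearman's rho of Cxcl1 with Cxcl10 was 0.964 (exact permutation p = 0.00278, adjusted 0.0417) and passed. Without it, Cxcl2 had r = 0.604 with Cxcl1 and 0.546 with Cxcl10 (exact permutation adjusted p = 0.431 for both). The transgene libraries are also split by library number, and within the 3 low-numbered libraries with the transgene no relation could be tested.

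Cxcl9, the other interferon-induced member, was carried by a handful of cells. Its level was 1.66, 0 and 0 CPM in nTg and 26.9, 0.108, 0.399 and 0 CPM in Clec7aKO, and 1.75, 4.74 and 4.92 CPM in SOD1 and 1.95, 6.57, 3.36 and 4.26 CPM in SOD1_Clec7aKO. In Clec7aKO_1, 1 cell held 617 of the 846 microglial UMIs and 11 of 3372 microglia carried any, and in nTg_1, 1 cell held 51 of 53. With the transgene 16 to 44 cells per library carried a UMI, and the leading cell held 15.3% to 51.5% of the UMIs. In log2 terms Cxcl9 differed by 2.47 (SE 1.59, edgeR adjusted p = 0.251) in SOD1 against nTg and -0.82 (SE 1.2, edgeR adjusted p = 0.601) in SOD1_Clec7aKO against Clec7aKO. Without Clec7aKO_1 the latter was 4.57 (edgeR adjusted p = 0.0056), the opposite sign, and SOD1 against nTg was 2.49 (edgeR adjusted p = 0.0471).

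Cxcl13, the B cell attractant, was called but stayed at a low level. It was 0.125, 0.0542 and 0.234 CPM in nTg and 0.223, 0.216, 0 and 0 CPM in Clec7aKO, from 0 to 7 UMIs per library. In SOD1 it was 0.577, 6.64 and 1.70 CPM and in SOD1_Clec7aKO 4.94, 7.12, 2.91 and 5.33 CPM, from 26 to 520 UMIs. No library with the transgene overlapped those without it. Its log2 fold change was 4.51 (SE 0.95, edgeR adjusted p = 0.00254) in SOD1 against nTg and 5.13 (SE 0.80, edgeR adjusted p = 1.6e-04) in SOD1_Clec7aKO against Clec7aKO, where 2 libraries without the transgene had 0 UMIs. Like Cxcl9 it was carried by few cells, 21 to 118 per library with the transgene, and the leading cell held 15.4% to 43.5% of the UMIs.

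Cxcl14 was the member with the smallest standard error for its change in microglia after Cxcl16. Its level was 7.29, 5.42 and 5.86 CPM in nTg and 13.2, 6.59, 6.78 and 10.6 CPM in Clec7aKO, and 96.6, 101 and 79.0 CPM in SOD1 and 137, 120, 143 and 118 CPM in SOD1_Clec7aKO. The 7 transgene libraries lay between 79.0 and 143 CPM and the others at or below 13.2 CPM. The log2 fold change was 3.89 (SE 0.25, edgeR adjusted p = 2.8e-07) in SOD1 against nTg and 3.8 (SE 0.22, edgeR adjusted p = 4.8e-08) in SOD1_Clec7aKO against Clec7aKO. The thinned share of microglia with a UMI was 1.27% ± 0.295 (SD, n = 3) in nTg and 11.3% ± 0.752 (n = 3) in SOD1 (4.81% and 42.1% unthinned), against 1.04% and 0.744% of endothelial cells (3.57% and 3.05% unthinned). Astrocyte markers summed to 208 to 296 CPM in nTg microglia and 145 to 208 CPM in SOD1 microglia, and the part of astrocyte RNA in the microglial Cxcl14 level was not tested.

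In astrocytes Cxcl14 moved the other way, by a much smaller amount (plot of Cxcl14 in both classes). Its level was 570, 671 and 576 CPM in nTg and 663, 697, 660 and 666 CPM in Clec7aKO, and 450, 443 and 381 CPM in SOD1 and 385, 408, 535 and 561 CPM in SOD1_Clec7aKO. It fell by 0.51 on the log2 scale (SE 0.18, edgeR adjusted p = 0.0396) in SOD1 against nTg and by 0.52 (SE 0.16, edgeR adjusted p = 0.0178) in SOD1_Clec7aKO against Clec7aKO, and the groups did not overlap in either. The second call was lost without SOD1_Clec7aKO_1 (-0.38, edgeR adjusted p = 0.118), SOD1_Clec7aKO_2 or Clec7aKO_3, with only the groups compared (-0.48, edgeR adjusted p = 0.0816) and at a limit of 10% mitochondrial UMIs (-0.45, edgeR adjusted p = 0.0728). The call in SOD1 against nTg was lost when any single SOD1 or nTg library was left out, at log2 fold changes of -0.57 to -0.43. It was also lost without Clec7aKO_1, Clec7aKO_3 or Clec7aKO_4, with no filter on low counts (-0.57) and at a doubled doublet rate (-0.47). The same held with library number (-0.40) or Xist (-0.50) as a covariate. Most astrocytes of nTg and Clec7aKO were in cluster 19 and most of those with the transgene in cluster 20, and the cells in the latter groups were few, 35 to 490 per library.

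**Figure D3:**
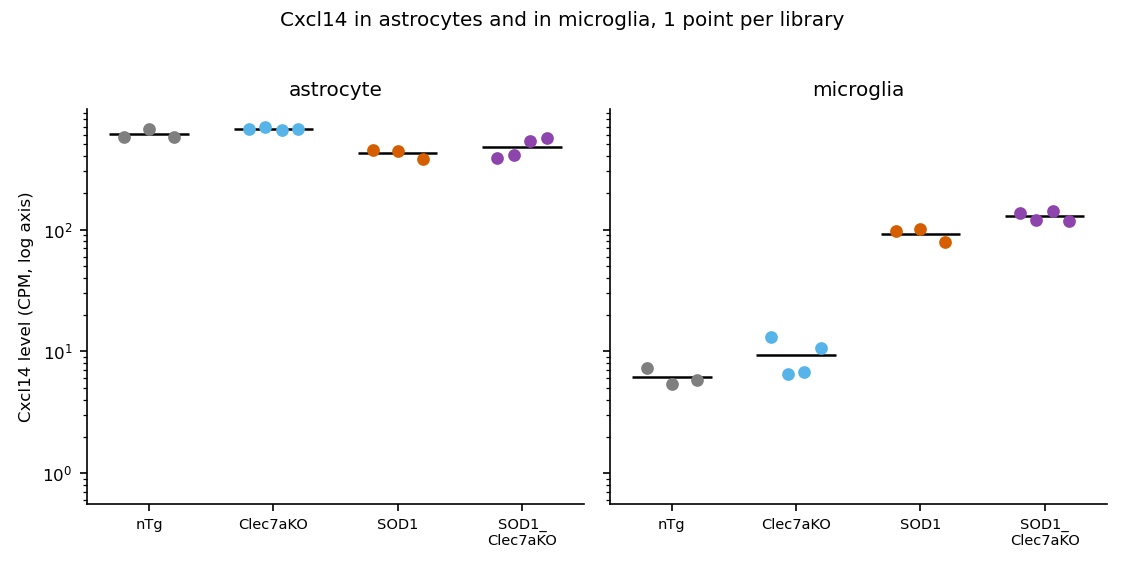
Points give the Cxcl14 level (CPM, log axis) in astrocytes (left) and in microglia (right) of each library, by group, with the group mean as a line. In microglia all transgene libraries sit at 79.0 CPM or above and all others at 13.2 CPM or below, and in astrocytes they sit at 381 to 561 CPM against 570 to 697 CPM.

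Cxcl16, the membrane-bound member that can be shed, was the most even across libraries. Its level was 102.5, 89.8 and 97 CPM in nTg, 93.5, 112, 72.7 and 117 CPM in Clec7aKO, 363, 462 and 373 CPM in SOD1 and 343, 458, 452 and 438 CPM in SOD1_Clec7aKO. The ranges without and with the transgene, 72.7 to 117 CPM and 343 to 462 CPM, were far apart. The log2 fold changes were 2.05 (SE 0.19, edgeR adjusted p = 3.9e-06) and 2.10 (SE 0.17, edgeR adjusted p = 4.8e-07). The thinned share of microglia with a UMI was 17.5% ± 2.34 (SD, n = 3) in nTg and 47.3% ± 4.25 (n = 3) in SOD1 (52.4% and 90.5% unthinned), against 0.414% and 1.48% of endothelial cells (2.54% and 6.02% unthinned).

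Cxcl12, a homeostatic chemokine of vessels, was low in microglia, at 0.815 to 5.85 CPM, against 1885 to 3859 CPM in endothelial cells. Microglia were at 4.35, 4.07 and 1.87 CPM in nTg and 5.85, 1.80, 3.46 and 3.64 CPM in Clec7aKO, and 2.26, 1.62 and 0.815 CPM in SOD1 and 2.36, 1.21, 1.87 and 1.5 CPM in SOD1_Clec7aKO. The groups overlapped. The log2 fold change was -1.16 (SE 0.45, edgeR adjusted p = 0.0598) in SOD1 against nTg and -1.08 (SE 0.39, edgeR adjusted p = 0.0371) in SOD1_Clec7aKO against Clec7aKO, and without Clec7aKO_1 the latter was -0.74 (edgeR adjusted p = 0.155). The value in SOD1 against nTg passed with DESeq2 (-1.20, adjusted p = 0.0279), with the replicate number as a block (-1.17, edgeR adjusted p = 0.0225) and when library number was a covariate (-1.42, edgeR adjusted p = 0.0223). In the last of these fits number and group were fully separated, as for Cxcl10. The microglial Cxcl12 level was a median of 0.137% of the endothelial one in nTg and 0.0742% in SOD1, below the 9 endothelial markers summed in microglia, which stood at 0.507% and 0.603% of their endothelial level. The part of endothelial RNA in the microglial Cxcl12 values and in their call was not tested.

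In endothelial cells, the main source of Cxcl12, its level was 3859, 2483 and 2762 CPM in nTg, 2820, 2332, 3016 and 3119 CPM in Clec7aKO, 2080, 1885 and 2120 CPM in SOD1 and 2734, 2063, 2212 and 2484 CPM in SOD1_Clec7aKO. SOD1 lay below nTg with no overlap, but the difference did not pass the test (-0.58 on the log2 scale, SE 0.20, edgeR adjusted p = 0.494). In SOD1_Clec7aKO against Clec7aKO the groups overlapped (-0.25, SE 0.17, edgeR adjusted p = 0.657). Endothelial Cxcl1 did not pass the test either, with means of 36.5 ± 36.3 CPM (nTg, SD, n = 3), 40.2 ± 32 (Clec7aKO, n = 4), 31.4 ± 23.6 (SOD1, n = 3) and 17.8 ± 20.1 (SOD1_Clec7aKO, n = 4). Its 4 lowest levels, 7.64, 7.59, 4.63 and 7.5 CPM, were those of SOD1_1, SOD1_Clec7aKO_1, SOD1_Clec7aKO_2 and Clec7aKO_1, the libraries numbered 1 to 4, and the other 10 libraries lay between 11.4 and 84.3 CPM. Of the 6 members tested in endothelial cells, Cxcl16 alone was called, in SOD1 against nTg (2.01, SE 0.29, edgeR adjusted p = 0.0019), where 0.719% of 13081 genes were, and in SOD1_Clec7aKO against Clec7aKO (1.86, SE 0.25, edgeR adjusted p = 0.00104), where 0.894% were.

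**Figure D4:**
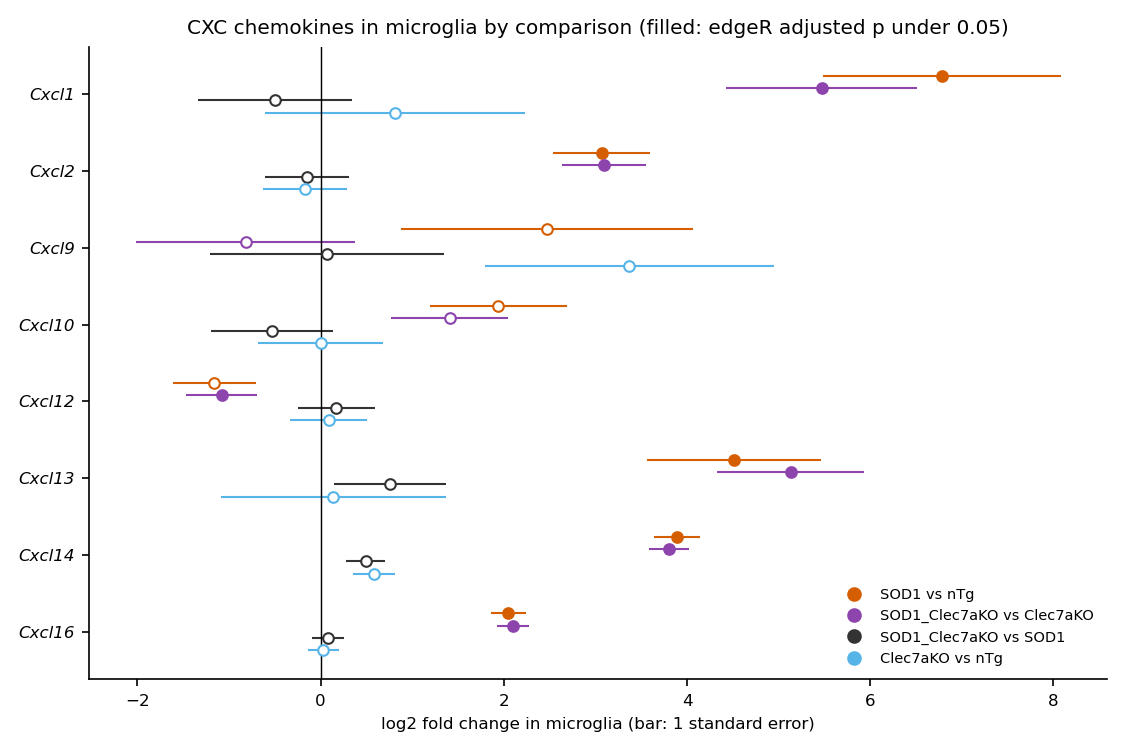
Points give the log2 fold change of each CXC chemokine in microglia with 1 standard error, for 4 comparisons (colours), filled where the edgeR adjusted p is under 0.05. Both transgene comparisons point the same way for each gene except Cxcl9 (2.47 and -0.82), and the 2 comparisons of the Clec7a knockout hold no filled point.

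None of the 8 passed the test for the loss of Clec7a in microglia. In SOD1_Clec7aKO against SOD1 0 of 8 were called by edgeR, where 0.0182% of all genes were, and 0 by DESeq2, and 1 had an unadjusted p under 0.05, as did 1709 of all 16498 genes. That gene was Cxcl14, at 118 to 143 CPM in SOD1_Clec7aKO and 79.0 to 101 CPM in SOD1, groups that did not overlap (a log2 difference of 0.49, SE 0.21, edgeR adjusted p = 0.479). In Clec7aKO against nTg 0 of 8 were called by edgeR, where 0.0303% of all genes were, and 0 by DESeq2, and again Cxcl14 alone had an unadjusted p under 0.05, as did 478 of all genes (0.58, SE 0.23, edgeR adjusted p = 1.00). For Cxcl2 and Cxcl16 the differences between SOD1_Clec7aKO and SOD1 were -0.15 (SE 0.46) and 0.08 (SE 0.17), and for Cxcl1 and Cxcl10 -0.50 (SE 0.84) and -0.53 (SE 0.67). The transgene effect with and without Clec7a, compared as a difference of differences, was called for 0 of 8 members, with 0 of all genes called by edgeR, and Cxcl14 differed by -0.09 (SE 0.30) and Cxcl1 by -1.31 (SE 1.65). Each comparison of the knockout shares libraries with both transgene comparisons, so their values are not independent.

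Astrocytes gained Cxcl10 with the transgene. Its level there was 8.25, 0.917 and 0.95 CPM in nTg and 0.535, 1.03, 8.58 and 2.71 CPM in Clec7aKO, against 61.6, 137 and 428 CPM in SOD1 and 42.5, 55.7, 10.5 and 191 CPM in SOD1_Clec7aKO. No library with the transgene overlapped the others. The log2 fold change was 6.0 (SE 0.85, edgeR adjusted p = 5.3e-05) in SOD1 against nTg and 4.18 (SE 0.90, edgeR adjusted p = 0.00148) in SOD1_Clec7aKO against Clec7aKO, with 32.6% and 34.2% of 12838 genes called. Microglial RNA in astrocytes also rose: the 12 microglia markers summed to a median of 1.15% of their microglial level in nTg astrocytes, 1.41% in Clec7aKO, 5.6% in SOD1 and 14.5% in SOD1_Clec7aKO. Astrocyte Cxcl10 stood at 0.807% and 1.36% of its microglial level in nTg and Clec7aKO, and at 62.4% and 43.6% in SOD1 and SOD1_Clec7aKO. Over libraries the Cxcl10 share was 21.1% to 80.4% in SOD1 and 3.13% (SOD1_Clec7aKO_3, with 6 UMIs) to 53.5% in SOD1_Clec7aKO, and the marker share 3.95% to 10.5% and 5.45% to 24.8%. The part of microglial RNA in astrocyte Cxcl10 was not tested. Gene lists chosen for the family also moved in the same astrocytes. In SOD1 against nTg 18 of 20 NF-kB response genes (median 2.15) and 16 of 19 interferon genes (median 2.07) were higher, and in SOD1_Clec7aKO against Clec7aKO 19 of 20 (median 3.01) and 14 of 19 (median 1.47). The NF-kB list includes Tnf, Il1b, Ccl3 and Ccl4, which were also among the leading genes of a microglia cluster. The part of microglial RNA in these list changes was not tested. Of the dissociation stress list, 16 of 22 genes were higher in SOD1 against nTg (median 1.54, where 17.4% of all genes were higher) and 17 of 22 in SOD1_Clec7aKO against Clec7aKO (median 1.84, where 18.6% were), and the part of this list in the level of Cxcl10 was not tested. By astrocyte cluster, Cxcl10 was at 8.46 CPM in cluster 19, which held most astrocytes without the transgene, and at 176 CPM in cluster 20, which held most of those with it (library medians 8.22 and 10.4 CPM).

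Astrocyte Cxcl12 also rose, at 18.2, 3.36 and 13.8 CPM in nTg and 58.5, 41.8 and 55.8 CPM in SOD1, a log2 difference of 2.12 (SE 0.46, edgeR adjusted p = 0.00184). In SOD1_Clec7aKO it was 79.3, 68.4 and 50.9 CPM and 0 UMIs in SOD1_Clec7aKO_4, where 3 UMIs would be 19.8 CPM, against 5.16 to 19.1 CPM in Clec7aKO (2.26, SE 0.43, edgeR adjusted p = 4.6e-04). The endothelial markers summed in astrocytes were a median of 0.318% of their endothelial level in nTg (0.318% to 0.342%), 0.158% in SOD1 (0.118% to 1.11%) and 0.458% in SOD1_Clec7aKO (0.178% to 0.782%). Cxcl12 stood at 0.459%, 2.61% and 2.58% of its endothelial level in these groups, and the part of endothelial RNA was not tested. Between astrocyte clusters 19 and 20 Cxcl12 differed as well, at 10.3 and 75.4 CPM.

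The remaining calls outside microglia are given beside the level of the microglia markers in the same cells. In SOD1 against nTg they were Cxcl1, Cxcl2 and Cxcl16 in astrocytes, Cxcl2, Cxcl10 and Cxcl16 in ependymal cells and in oligodendrocyte precursors, and Cxcl16 in endothelial cells, for 13 pairs of member and class in all with Cxcl10, Cxcl12 and Cxcl14 of astrocytes. In ependymal cells 1.07% of genes were called and in oligodendrocyte precursors 1.56%. SOD1 astrocyte Cxcl2 was a median of 2.67% and Cxcl16 5.92% of the microglial level, against 5.6% for the microglia markers, and Cxcl1 stood at 13.6% (0 to 89.7% over the 3 libraries). In endothelial cells Cxcl16 stood at 1.91% of its microglial level in nTg and 2.87% in SOD1, and the markers at 0.387% and 2.2%. In SOD1 ependymal cells Cxcl2, Cxcl10 and Cxcl16 stood at 1.82%, 2.86% and 2.66%, against 3.23% for the markers. In SOD1 oligodendrocyte precursors they stood at 1.05%, 1.44% and 2.88%, against 2.44%. Clec7a, a myeloid gene, rose as well in SOD1 against nTg in astrocytes (log2 fold change 5.50), endothelial cells (7.08), ependymal cells (7.15) and oligodendrocyte precursors (6.34). The part of microglial RNA in these calls was not tested. Astrocyte Cxcl1 rested on 16 and 50 UMIs in SOD1_2 and SOD1_3 and 0 in SOD1_1. Several calls in SOD1 against nTg were lost when 1 library was left out. Cxcl10 in oligodendrocyte precursors was lost without SOD1_2 (2.73, edgeR adjusted p = 0.368), any nTg library, SOD1_Clec7aKO_3 or Clec7aKO_3. Cxcl16 there was lost without SOD1_2 (1.42, edgeR adjusted p = 0.141), nTg_2 or nTg_3, and Cxcl10 in ependymal cells without SOD1_2 (1.96, edgeR adjusted p = 0.073), nTg_1 or nTg_2. With the Xist covariate Cxcl1 in astrocytes (5.22, edgeR adjusted p = 0.0621) and Cxcl16 in ependymal cells (2.99, edgeR adjusted p = 0.0619) were lost as well. Mural cells had 0 calls of the 4 members tested, with 1 at an unadjusted p under 0.05 in SOD1 against nTg, where 0.104% of genes were called. In SOD1_Clec7aKO against Clec7aKO 10 pairs were called: Cxcl2, Cxcl10, Cxcl12, Cxcl14 and Cxcl16 in astrocytes, Cxcl2 and Cxcl16 in ependymal cells (where 1.39% of genes were called) and in oligodendrocyte precursors (4.6%), and Cxcl16 in endothelial cells. Cxcl16 in oligodendrocyte precursors was lost in 6 of the fits without 1 library, at 1.07 to 1.35, and with only the groups compared. In SOD1_Clec7aKO the microglia markers stood at a median of 14.5% of their microglial level in astrocytes (5.45% to 24.8%), Cxcl2 at 13.1% and Cxcl16 at 15.4%. In ependymal cells the markers stood at 3.28%, Cxcl2 at 1.88% and Cxcl16 at 2.34%. In oligodendrocyte precursors they stood at 2.58%, 1.51% and 3.09%, and in endothelial cells the markers at 2.97% and Cxcl16 at 3.13%. Mural cells had 0 there, with 0.482% of genes called. Mural Cxcl2, at 0 to 71 UMIs per Clec7aKO library, became a call in some alternatives. These were no filter on low counts (1.32), Clec7aKO_2 left out (5.75), clustering resolution 0.5 (5.03) and a doubled doublet rate (5.55). Mural Cxcl16 became one with no filter (1.91), at resolution 0.5 (2.85) and at the doubled doublet rate (2.51).

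In these 5 classes edgeR and DESeq2 each called 0 members in both comparisons of the Clec7a knockout. In SOD1_Clec7aKO against SOD1 edgeR called 0.0156% of genes in astrocytes, 0.00764% in endothelial cells, 0.0262% in ependymal cells, 0.117% in mural cells and 0.00755% in oligodendrocyte precursors. The members at an unadjusted p under 0.05 there were 3 in astrocytes (as were 1116 of 12838 genes), 1 in ependymal cells (1134 of 15294 genes) and 2 in mural cells (766 of 7670 genes). In Clec7aKO against nTg 0.0262% of genes were called in ependymal cells, where 1 member had an unadjusted p under 0.05 (as had 275 genes), 0.0151% in oligodendrocyte precursors and 0 in the other 3 classes.

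Levels over the 27 clusters differed between members (plot of levels by cluster). Cluster 0, a microglia cluster led by Acod1 and Olr1, held 81.1% of the microglial Cxcl1 UMIs, 55.4% of Cxcl2 and 47.5% of Cxcl14. Cluster 4, led by Ifit2, Ifit3 and Ifnb1, had the highest Cxcl10 level, 1277 CPM, and the highest Cxcl13 level, 12.2 CPM. Cluster 7, led by the antigen presentation genes H2-Aa and Cd74, had the highest Cxcl9 level from pooled UMIs, 47.1 CPM, with a highest library at 1919 CPM. By the median over 8 libraries Cxcl9 was higher in cluster 4, at 22.3 CPM (24.9 CPM pooled), than in cluster 7, at 11.3 CPM. Cxcl12 peaked in endothelial cluster 17, led by Alpl and Sema3g, at 3765 CPM, against 1983 CPM in endothelial cluster 18. Cxcl14 was at 642 CPM in astrocyte cluster 19 and at 161 CPM in the unnamed Gpnmb-led cluster, against 148 CPM in cluster 0, and by library median at 154 CPM and 162 CPM in these. Clusters were made from genes that include these, so their levels describe the clusters and were not tested.

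**Figure D5:**
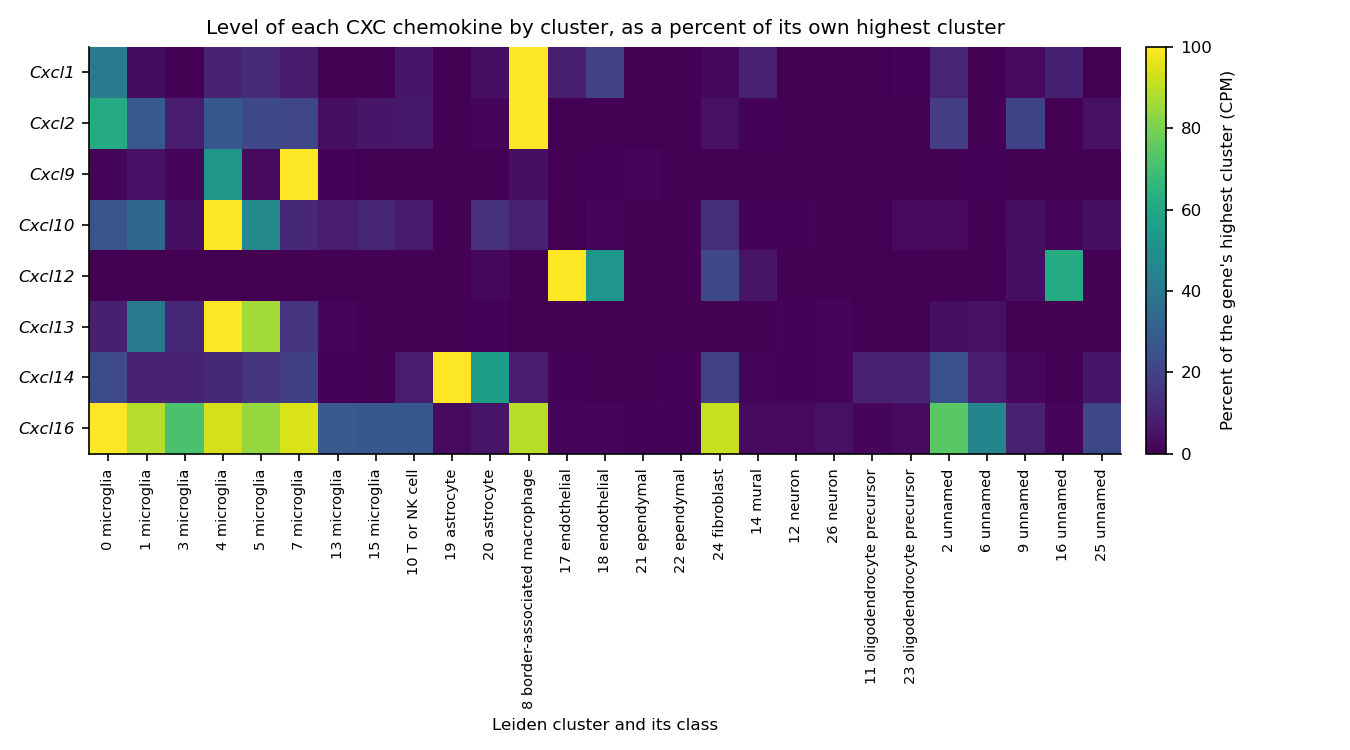
Colour gives the level of each CXC chemokine (rows) in each of the 27 clusters (columns, with their class) as a percent of that gene's highest cluster. Cxcl1 and Cxcl2 peak in border-associated macrophages (cluster 8) and microglia cluster 0, Cxcl9 in cluster 7 from pooled UMIs (by library median it is higher in cluster 4), Cxcl10 and Cxcl13 in cluster 4, Cxcl12 in endothelial clusters and cluster 16 and Cxcl14 in astrocytes, and Cxcl16 is spread over the myeloid clusters and the fibroblast cluster.

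The genes whose log levels over the 27 clusters were most alike those of a member, among 13727 genes, are given as a description, since the clusters share libraries and differ in depth. For Cxcl2 they were Tnip3 (Pearson's r = 0.973), Il1b (0.962) and Lilrb4a (0.954), and for Cxcl1 Dnase1l1 (0.804), Myof (0.783) and Plin2 (0.761). For Cxcl10 they were Ccl2 (0.865), Mir155hg (0.860) and Ccl4 (0.848). Cxcl9 and Cxcl13 had the same 3, Il12b, Ifnb1 and Phf11a, at r of 0.661 to 0.696 and of 0.723 to 0.8. For Cxcl12 they were Wfdc1 (0.975), Cgnl1 (0.973) and Jcad (0.970), for Cxcl14 Hif1a (0.879), Car13 (0.874) and Fabp5 (0.855), and for Cxcl16 Fcrls (0.972), Tnni2 (0.971) and P2rx4 (0.967).

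Among the receptors and sheddases of the family, 6 of 10 genes passed the filter in microglia, and Cxcr4 and Adam17 rose in SOD1 against nTg, 2 of 6 where 19.1% of all genes rose. The median of the 6 was -0.18. Cxcr4, the receptor of Cxcl12, was at 1.41 to 4.29 CPM in nTg and 20.1 to 98.6 CPM in SOD1, a log2 difference of 4.41 (SE 0.66, edgeR adjusted p = 2.2e-04), and it rose in SOD1_Clec7aKO against Clec7aKO (3.70, SE 0.55, edgeR adjusted p = 1.2e-04). Adam17, a protease that sheds Cxcl16, rose by less (0.72, SE 0.18, edgeR adjusted p = 0.00668), and by 0.41 (SE 0.15, edgeR adjusted p = 0.0396) in SOD1_Clec7aKO against Clec7aKO. Cxcr2, Cxcr3, Ackr3 and Adam10 did not pass in SOD1 against nTg, at -0.66, -0.23, -0.64 and -0.14. Adam10, the other sheddase, fell in SOD1_Clec7aKO against Clec7aKO (-0.48, SE 0.12, edgeR adjusted p = 0.00548), at 84.7 to 119 CPM against 134 to 149 CPM. Of the 7 other CXC ligands 3 were tested: Pf4, also called Cxcl4, rose from at most 0.217 CPM in nTg to 5.46 to 10.6 CPM in SOD1 (5.62, SE 0.48, edgeR adjusted p = 1.6e-06). Cxcl3 rose at a low level (5.86, SE 1.44, edgeR adjusted p = 0.00683), at 0.289 to 1.56 CPM in SOD1 and 0 or 1 UMI per nTg library, and Cxcl11 did not pass (3.13, SE 1.24, edgeR adjusted p = 0.0665). Markers of border-associated macrophages, a class that also expresses Pf4, summed to 1.87 to 2.38 CPM in nTg microglia and 24.3 to 67.2 CPM in SOD1 microglia, and their part in the changes of Pf4, Cxcl1 and Cxcl2 was not tested.

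Lists of NF-kB response genes and of interferon genes, chosen for the family, were read in the same microglia. The interferon list holds response genes and also interferons (Ifnb1 and Ifng) and receptor genes such as Ifnar1. Of 20 NF-kB response genes 4 rose and 1 fell in SOD1 against nTg, at a median of 0.28 on the log2 scale, and the 4 of smallest p were Il1b (3.00), Ccl3 (1.45), Ptgs2 (2.99) and Birc3 (-0.61). Of 22 interferon genes tested, 13 rose and 1 fell, with a median of 1.33, and the 4 of smallest p were Ifnar1 (1.02), Usp18 (2.97), Rsad2 (4.36) and Gbp5 (1.28). Over all genes tested 19.1% rose and 12.6% fell, with a median of 0.00, so the share of NF-kB genes that rose was near that of all genes. Of 22 genes of the dissociation stress response, 0 rose and 10 fell, with a median of -0.61, among them Klf2 (-2.24), Klf4 (-1.6), Jun (-1.2) and Dnajb1 (-1.06). Their summed level was 44671 to 55764 CPM in nTg microglia and 21626 to 23445 CPM in SOD1, so the rise of the chemokines went with a lower level of this list, and its part in the levels was not tested.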

How the data were processed

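Each library was deposited as a matrix of raw, unnormalized UMI counts of 55335 genes by barcode, and its header gives software version 3.0.2. Cell Ranger, Seurat and DESeq2 and the build mm10 are named in the submitters' processing notes, and other steps are not given in the sources used here. The members and gene lists were chosen with earlier results of these data known.

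Barcodes with at least 500 genes, 1000 UMIs and at most 15% mitochondrial UMIs were kept, and the cells with the highest Scrublet scores were removed at 0.8% per 1000 barcodes (of 108892 barcodes, depth removed 7127, the mitochondrial limit 4963 and the doublet score 7046). Leiden clustering at resolution 1.0 (scanpy 1.11.5, 30 components) gave 27 clusters, named from marker genes. Clusters in which markers of another class were also over a log2 fold of 5.0, set after the data were seen, stayed unnamed: cluster 9 (a mean of 0.181% of cells in nTg, 0.640% in Clec7aKO, 0.0733% in SOD1 and 0.133% in SOD1_Clec7aKO) and cluster 16 (5.91%, 6.72%, 3.49% and 2.63%), whose leading genes also belonged to another class. Doublets that remained, and RNA free in the suspension, can add one class's genes to another.

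UMIs were summed per library and class, in classes with at least 20 cells in every library, and tested with edgeR 4.0.16 (TMM, filterByExpr, quasi-likelihood fit of all 14 libraries, Benjamini-Hochberg over all genes of a class). CPM are TMM-scaled, except shares of a level in another class, cluster levels, levels in border-associated macrophages with the microglial Cxcl16 levels beside them, and summed levels of marker and stress lists in microglia, which use plain totals. In nTg and SOD1 microglia the mean of Cxcl2 was 224.7 and 1356 CPM on plain totals and 183.3 and 1542 CPM with TMM. Cxcl16 was at 117.3 and 354.2 CPM against 96.4 and 399.5 CPM. Cxcl12 was at 4.17 and 1.41 CPM against 3.43 and 1.57 CPM. The groups thus lay farther apart with TMM for Cxcl2 and Cxcl16 and closer for Cxcl12. A level of 3 UMIs is taken as the floor. The fit was tested on simulated microglial counts for SOD1 against nTg. It recovered 37% of log2 changes of 1 and 86% of those of 2, with 7 false calls. Changes of these sizes can thus be missed. Named genes are the 8 members, all tested receptors, sheddases and other CXC ligands, the 4 genes of smallest p in each other list in SOD1 against nTg, and the 3 genes most alike each member in log2(CPM + 1) over clusters. Alternatives covered DESeq2 1.42.0, no filter, each library left out, the replicate number as a block, only the 2 groups compared, resolution 0.5, at most 10% mitochondrial UMIs, a doubled doublet rate, and Xist or library number as a covariate.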

Additional observations from a re-analysis of the deposited data

Results flagged for a closer look

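In groups of 4 libraries, a library was picked out where its gap to the nearest other exceeded 0.829 of the group's range, which chance alone gives in about 1 of 20 groups. The screen covered 24 groups, for the 8 members in microglia, Cxcl1 and Cxcl12 in endothelial cells, Cxcl14 in astrocytes and Cxcl12 in mural cells, and picked out 3 libraries. Cxcl9 in the microglia of Clec7aKO_1 was at 26.9 CPM, against at most 0.399 CPM in the other 3 Clec7aKO libraries, and 1 cell held 617 of its 846 UMIs. Cxcl1 in the endothelial cells of SOD1_Clec7aKO_3 was at 47.8 CPM, against 4.63 to 11.4 CPM in the other 3 libraries of that group. Cxcl14 in the astrocytes of Clec7aKO_2 was at 697 CPM, with the other 3 at 660 to 666 CPM; the libraries with the transgene were at 381 to 561 CPM.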

How the results depend on the processing

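In microglia, the 11 member changes called at an edgeR adjusted p under 0.05 kept their sign in all 275 alternatives run and their call in 270; the other 5 were Cxcl12 in SOD1_Clec7aKO against Clec7aKO with a library left out. Of the remaining 29 microglial values, 5 became calls in some alternatives: Cxcl10 in SOD1 against nTg (8) and SOD1_Clec7aKO against Clec7aKO (4), Cxcl12 (10) and Cxcl9 (1) in SOD1 against nTg, and, with the opposite sign, Cxcl9 in SOD1_Clec7aKO against Clec7aKO (2). The value of Cxcl9 in microglia: SOD1_Clec7aKO vs Clec7aKO (log2 fold change), -0.82 with all libraries, turned to 4.57 without Clec7aKO replicate 1 (range over libraries left out, -1.25 to 4.57) and to 4.11 at Leiden resolution 0.5. In other classes the 23 called changes kept their sign in all 549 alternatives and their call in 504, 15 of them in every one. The number of calls in other classes in SOD1 against nTg was 13, and 7 with the Xist covariate, which lost Cxcl1 (5.22) and Cxcl14 (-0.50) in astrocytes, Cxcl10 (2.23) and Cxcl16 (2.99) in ependymal cells and Cxcl10 (4.80) and Cxcl16 (1.66) in oligodendrocyte precursors. The share of all genes called is not given for this or the other alternative fits. A change particular to the members thus cannot be told from a general one in these counts. With no filter on low counts it was 7 in SOD1_Clec7aKO against SOD1 (0 with the filter) and 17 in SOD1_Clec7aKO against Clec7aKO (10 with it); the cause was not tested. Leaving out each library gave 0 to 1 calls in SOD1_Clec7aKO against SOD1, 9 to 13 in SOD1 against nTg and 8 to 10 in SOD1_Clec7aKO against Clec7aKO, and 5 to 7 members in microglia in both transgene comparisons. Of the 2 member pairs called across libraries, 0 were without the 2 farthest libraries, where r of Cxcl2 with Cxcl10 was 0.967; the smallest p over 5 libraries adjusted to 0.167, so the lost call says nothing about stability.

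Replicate numbers were not taken to pair the libraries, since the labels do not state that they pair animals. Of 19 same-numbered pairs, 9 had a correlation of deviations over 0.1 (range -0.178 to 0.35). Of 14 libraries, 8 correlated best with their own number, a hint of pairing from the data and not from the labels. The number expected by chance is not given, so these values do not speak against pairing. With the replicate block 6 members were called in microglia in SOD1 against nTg and 6 in SOD1_Clec7aKO against Clec7aKO, and 0 in the comparisons of the knockout; in other classes the block gave 14 and 11. With the Gpnmb-led and low-depth clusters added to the microglia, or with a block for libraries 1 to 4 (alternatives chosen after seeing the data, the block from libraries low in Cxcl10), the microglial counts were 5 and 7 in SOD1 against nTg, and 6 and 7 in SOD1_Clec7aKO against Clec7aKO. For these fits, too, the share of all genes called is not given. A change particular to the members cannot be told from a general one in their counts. Depth limits Cxcl9, at 0 to 846 UMIs in the microglia of a library, and Cxcl9 and Cxcl13 in mural cells, at 0 UMIs in every library.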
